A study of Mus musculus with 18 samples.

Results

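Ribosomal protein genes were selected by symbol from the expression values of mouse liver, epididymal white adipose tissue (eWAT) and quadriceps muscle. The rule took symbols that start with Rpl, Rps, Rplp, Mrpl or Mrps followed by a number, and Rpsa, and left out the Rps6k kinases. It matched 173 of the 21899 genes listed. By symbol, 77 were counted as proteins of the cytosolic ribosome (31 of the small and 46 of the large subunit) and 78 as proteins of the mitochondrial ribosome (29 and 49). Whether each of these proteins is part of the ribosome was not checked. Another 7 are paralogs of cytosolic members (Rpl3l, Rpl7l1, Rpl10l, Rpl22l1, Rpl36al, Rpl39l and Rps27l) and 10 are pseudogenes or retrogenes. The remaining gene, Rps19bp1, encodes a protein that binds Rps19 and is not part of the ribosome.

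All mice were wild-type C57BL/6 males aged 18 weeks. The HSD group had been fed a high-salt diet for 12 weeks and the CON group a control diet. Each tissue had 3 CON and 3 HSD libraries of bulk RNA, 18 in all, each from a different mouse within its tissue, and several mice gave more than 1 tissue. The study's own analysis used 15 of them, without liver CON replicate 2, liver HSD replicate 3 and eWAT HSD replicate 3.

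A ribosome is built from ribosomal RNA and a fixed set of proteins, most of which are needed in equal numbers for each particle. The cytosolic ribosome translates messenger RNA from the nucleus. The mitochondrial ribosome has its own proteins, also encoded in the nucleus, and makes the few proteins that mitochondrial DNA encodes, all of them parts of the respiratory chain. A few cytosolic proteins have paralogs with narrower expression, and Rpl3l is known from heart and skeletal muscle.

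Messenger RNA of cytosolic ribosomal proteins typically begins with a run of pyrimidines (C or T), through which nutrient signals control its translation. The 40 bases around the transcription start, 20 on each side, are shown for a member with a long run, for a pair of related genes with different tissue patterns, for Rpl3l, and for mitochondrial members at the ends of the tissue differences given further on. The sequences are from RefSeq on GRCm38.p6, run 5′ to 3′ on the strand of the gene, and carry the longest pyrimidine run in capitals. By the start that RefSeq annotates, the first 20 bases lie upstream of the gene and the last 20 in its first exon. The start that GENCODE annotates lies 0 to 66 bases from it in the genes shown, furthest in Mrps6.
Rpl4, chr9:64173367-64173406, + strand: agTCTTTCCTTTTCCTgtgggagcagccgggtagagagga
Rps27, chr3:90213629-90213668, - strand: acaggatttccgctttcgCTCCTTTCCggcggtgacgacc
Rps27l, chr9:66946066-66946105, + strand: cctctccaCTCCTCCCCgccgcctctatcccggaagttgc
Rpl3l, chr17:24727806-24727845, + strand: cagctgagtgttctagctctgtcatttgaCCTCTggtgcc
Mrps6, chr16:92058316-92058355, + strand: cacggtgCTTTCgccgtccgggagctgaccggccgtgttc
Mrpl42, chr10:95501930-95501969, - strand: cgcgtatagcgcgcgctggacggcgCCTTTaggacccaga
Mrps23, chr11:88204368-88204407, + strand: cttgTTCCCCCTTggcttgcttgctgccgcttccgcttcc

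Such a window was found for 57 cytosolic members, 69 mitochondrial members and all 7 paralogs, among 16519 genes. The longest run of C or T had a median of 7 bases in cytosolic members, 5 in mitochondrial members and 5 over all genes. A run of at least 8 bases was present in 45.6% of cytosolic members, 17.4% of mitochondrial members and 15.5% of all genes. The motif CTTTC was found on the strand of the gene in 29.8% of cytosolic, 4.35% of mitochondrial and 4.89% of all windows. On either strand it was found in 35.1%, 5.80% and 8.80%. Matches to these letters are a description of the windows. The run of Rpl4 is 14 bases long, that of Rps27 and of Rps27l 9 bases, and that of Rpl3l 5 bases. Those of Rpl4 and Rps27l end upstream of the start that RefSeq annotates, and that of Rps27 spans it.

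Each library held 7628071 to 16637488 fragments. Values were FPKM, the fragments of a gene scaled by the length of its exons and by the fragments of the library. The share of fragments on mitochondrially encoded genes was 3.52 to 5.11% in eWAT and 11.3 to 16.5% in muscle. In liver it was 60.8, 25.7 and 37.8% in CON replicates 1, 2 and 3 and 16.3, 15.4 and 44.4% in HSD replicates 1, 2 and 3. Summed markers of hepatocytes, adipocytes and skeletal muscle were highest in the tissue of that name, although the hepatocyte marker Cyp2e1 was highest in an eWAT library. Liver CON replicate 2 stood apart, with 10 skeletal muscle markers summing to 4610 FPKM (2.51 to 6.34 in the other livers) and all 10 above 1 FPKM. The 5 blood markers summed to 5626 FPKM in it (237 to 842 in the other livers), to 5667 in eWAT CON replicate 1 (243 to 744 in the other eWAT libraries) and to 965 in muscle CON replicate 1 (124 to 224), and by their labels these 3 libraries share a mouse. In eWAT HSD replicate 2, 10 markers of epididymal epithelium summed to 19311 FPKM, and 8 adipocyte markers summed to 7194 FPKM (16945 to 23426 in the other eWAT libraries). Male germ cell markers summed to 644 and 316 FPKM in eWAT HSD replicates 1 and 2 and to 1.83 to 57.8 in the others.

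Cytosolic members were expressed several times higher than mitochondrial members in every library. In eWAT, the median FPKM of cytosolic members was 116, 95.7 and 102 in CON mice and 95.4, 125 and 104 in HSD mice. In muscle, it was 53.9, 57.6 and 64.8 in CON mice and 50.3, 80.2 and 73.4 in HSD mice. In liver, it was 22.9, 78.7 and 48.4 in CON mice and 96.0, 106 and 32.2 in HSD mice. Liver thus spanned a wider range than the other tissues, and its diet groups overlapped. Mitochondrial members had medians of 9.47 to 12.8 FPKM in eWAT, 10.3 to 13.2 in muscle and 3.22 to 8.32 in liver. As group means, cytosolic medians in CON mice were 105 ± 10.3 FPKM in eWAT, 58.8 ± 5.51 in muscle and 49.97 ± 27.9 in liver (SD, n = 3).

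**Figure D1:**
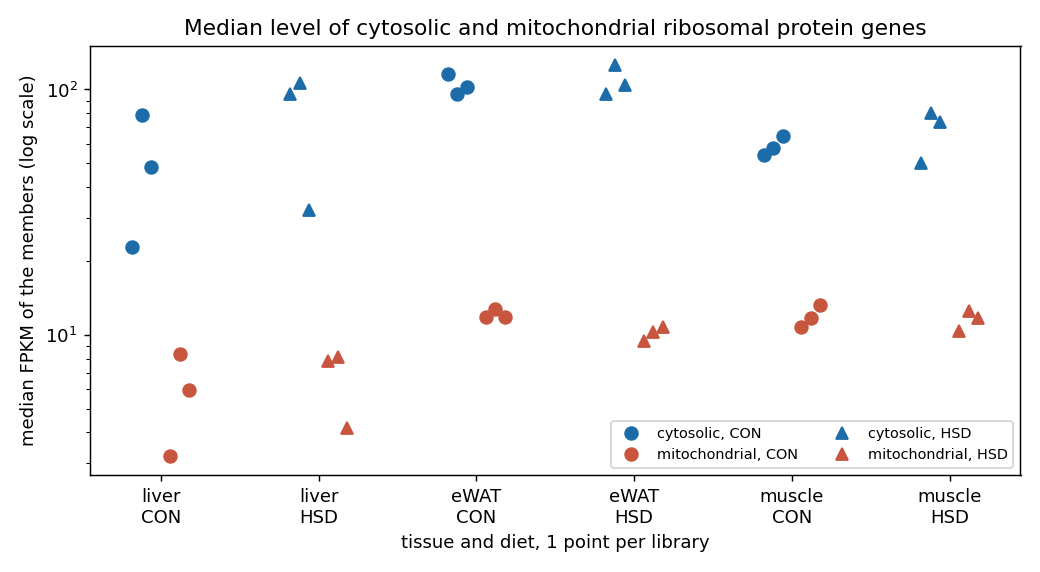
Median FPKM of the cytosolic and mitochondrial members in each library (log axis), by tissue and diet, with 1 point per library, circles for CON and triangles for HSD. Cytosolic medians lie between 22.9 and 125 FPKM and mitochondrial medians between 3.22 and 13.2 FPKM, and liver has the widest spread of both.

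The ratio of the cytosolic to the mitochondrial median does not depend on how a library is scaled. In muscle this ratio was 5.01, 4.92 and 4.92 in CON mice and 4.87, 6.41 and 6.27 in HSD mice. It was 9.80, 7.50 and 8.63 in CON eWAT and 10.1, 12.2 and 9.70 in HSD eWAT. In liver it was 7.11, 9.46 and 8.11 in CON mice and 12.3, 13.03 and 7.70 in HSD mice. Every muscle library lay below every library of liver and eWAT. The diet groups overlapped in liver and muscle, and in eWAT the lowest HSD ratio, 9.70, was below the highest CON ratio, 9.80.

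Within a ribosome, levels differed widely between genes even though most of its proteins are used in equal numbers. The highest cytosolic members in eWAT of CON mice were Rplp1, a protein of the acidic stalk that recruits translation factors (762 ± 97.0 FPKM), Rps15 (513 ± 65.8) and Rps3a1 (483 ± 60.7), and the last pair differed by less than their SD. In muscle, Rplp1 (435 ± 72.0), the stalk base Rplp0 (384 ± 26.3) and Rps3a1 (304 ± 21.3) led, and in liver Rpl36 (491 ± 193), Rps15 (369 ± 151) and Rpl19 (284 ± 140 FPKM), each n = 3. Liver was thus led by other genes than the stalk proteins, but the SD of its leading genes overlapped. Lowest in eWAT were Rpl24 (0.443 ± 0.176 FPKM), Rps10 (1.08 ± 0.308) and Rpl13a (1.65 ± 0.212), and in liver Rps10 (0.458 ± 0.0137), Rpl24 (0.764 ± 0.835) and Rpl23a (1.60 ± 1.63). In muscle, Rpl24 (0.188 ± 0.265), Rps10 (0.299 ± 0.0095) and Rpl13a (0.380 ± 0.0590) were under 1 FPKM in every CON library, followed by Rpl23a (2.92 ± 0.587) and Rpl35 (4.49 ± 1.54). These low levels concern genes with shared sequence. Another gene on the same strand covers 47.0% of the exon bases of Rpl24, 35.4% of Rpl13a and 20.6% of Rps10, and 20 other genes have a transcript nearly identical to that of Rpl23a.

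Near-identical copies were common throughout. A transcript at least 95% identical over at least 150 bases was found in another gene for 75 of 77 cytosolic members, with a median of 6 such genes and up to 62, and for 25 of 78 mitochondrial members. Cytosolic levels therefore carry an uncertainty from how fragments that match several copies were counted. Of the 10 pseudogenes and retrogenes, 3 were listed at 0 in all libraries and 5 reached 1 FPKM in some library. Rpl9-ps6 stood at 42.4 to 51.9 FPKM in eWAT, 20.9 to 30.4 in muscle and 2.46 to 14.2 in liver. The retrogene Rps27rt, nearly the same in sequence as Rps27, ranged from 20.2 to 72.4 FPKM. Rps19bp1 ranged from 4.30 to 27.8 FPKM.

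Among mitochondrial members, Mrps21 was high in all 3 tissues of CON mice (50.4 ± 3.95 FPKM in eWAT, 67.8 ± 7.79 in muscle and 52.6 ± 25.6 in liver). Mrpl12, the stalk protein of the mitochondrial large subunit, was at 43.4 ± 1.43 FPKM in eWAT and 58.2 ± 5.29 in muscle. In liver, Mrpl18 (57.6 ± 32.9 FPKM) and Mrpl14 (36.3 ± 9.20) were among the 3 highest. Mrpl33 was the lowest in each tissue after Mrpl53 (1.33 ± 0.205, 0.649 ± 0.0506 and 0.529 ± 0.138 FPKM in eWAT, muscle and liver). Mrpl53 was listed at 0 in all 18 libraries, and 88.0% of its exon bases lie in another gene on the same strand.

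Tissue levels were then compared over the 9 CON libraries. Fits were made by limma on log2(FPKM + 0.5) across all 12637 genes with a mean of at least 0.5 FPKM, and a call needed a difference of at least 2-fold together with a p under 0.05 after Benjamini-Hochberg adjustment. Of the members, 76 cytosolic, 77 mitochondrial and 4 paralogs entered this fit, without Rpl24, Mrpl53, Rpl10l, Rpl36al and Rpl39l. In bulk tissue, fewer cells of a type and less RNA per cell cannot be told apart. Differences are given as log2 values.

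Between liver and muscle, most mitochondrial members had lower values in liver. Of 77 tested, 36 were called lower and 1 higher, against 14 lower and 4 higher of 76 cytosolic members. Over all genes 50.1% were called, 35.1% of those tested being lower and 15% higher. The median difference was -0.96 for mitochondrial and -0.24 for cytosolic members, beside -0.52 over all genes. Relative to that median of all genes, mitochondrial members were at -0.44 and cytosolic members at 0.29. Mitochondrial medians were negative under each scaling tried, and the sign of the cytosolic median changed with it (0.40 by median-ratio scaling, 0.35 with mitochondrially encoded genes left out, 0.14 in HSD mice). The direction of the calls moved with it too. By median-ratio scaling, 17 cytosolic members were higher and 5 lower, and 8 mitochondrial members higher and 16 lower, where 22.8% of all genes were higher and 24.5% lower. By quantile normalization it was 7 and 10, and 3 and 18 (20.3 and 24.4% of all genes), and with mitochondrially encoded genes left out 15 and 5, and 7 and 17 (22.1 and 25.5%). Without liver CON replicate 2, 27 cytosolic members were lower and 5 higher (37.9 and 15.2% of all genes). Without liver CON replicate 1, 21 mitochondrial members were lower and 1 higher (33.2 and 15.1% of all genes).

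Mrps23, of the small subunit, differed most of the mitochondrial members. It stood at 1.93, 10.03 and 2.38 FPKM in CON livers and at 40.01, 38.6 and 43.2 in CON muscle, with no overlap (log2 difference -3.29 ± 0.47 SE, adjusted p = 0.000191). Mrpl44, related to double-strand RNA nucleases, stood at 0.797, 4.97 and 1.40 FPKM in liver and 17.9, 14.9 and 16.9 in muscle (-2.84 ± 0.44, adjusted p = 0.000315). Mrpl42 was 3.38, 16.6 and 8.76 FPKM in liver and 50.9, 54.7 and 61.8 in muscle (-2.72 ± 0.44, adjusted p = 0.000445). For these 3 genes liver CON replicate 2, the library with muscle markers, was the highest CON liver. Mrpl52 was the mitochondrial member called higher in liver, at 17.5, 38.6 and 26.8 against 10.9, 12.2 and 14.3 FPKM (1.05 ± 0.27, adjusted p = 0.00588). Mrpl18 (0.98) and Mrps11 (0.72) had higher values in every CON liver than in any CON muscle and were under 2-fold.

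Of the cytosolic members, Rpl4, which lines the exit tunnel for new proteins, stood at 26.6, 126 and 48.4 FPKM in CON livers and 284, 284 and 318 in CON muscle (log2 difference -2.43 ± 0.49, adjusted p = 0.00167). Rplp0 (-2.29) and Rps3a1 (-1.75) were called lower in liver too. In the other direction, Rpl36 stood at 275, 644 and 555 FPKM in liver and 186, 172 and 216 in muscle (1.28 ± 0.37, adjusted p = 0.0126), and Rpl38 at 67.7, 142 and 132 against 36.1, 41.7 and 52.5 (1.32 ± 0.31, adjusted p = 0.00377). Cytosolic genes of liver and muscle thus moved in both directions. Rpl13a had the same difference as Rpl38, 1.32, from levels of 1.5 to 1.87 FPKM in liver and 0.321 to 0.439 in muscle, near the pseudocount of 0.5.

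Between eWAT and liver, members of both ribosomes had higher values in eWAT. Of 76 cytosolic members, 42 were called higher and 0 lower (49 and 0 at an unadjusted p under 0.05 by limma, and 43 and 0 called by voom), and of 77 mitochondrial members, 34 were higher and 2 lower. Over all genes 69.4% were called, 62.1% of those tested being higher and 7.26% lower. Medians were 1.16 and 0.87, both under the median of all genes, 1.36. By median-ratio scaling the direction of both medians turned, to -0.46 and -0.63, and with mitochondrially encoded genes left out they were 0.41 and 0.23, so the direction between eWAT and liver rests on the scaling. By median-ratio scaling, 2 cytosolic members were higher and 20 lower, and 4 mitochondrial members higher and 24 lower, where 21.5% of all genes were higher and 20.3% lower. By quantile normalization it was 23 and 2, and 6 and 14 (22.9 and 17.8% of all genes), and with mitochondrially encoded genes left out 20 and 2, and 15 and 5 (42.9 and 10.9%). Of the paralogs, Rpl7l1 (1.36) and Rpl22l1 (1.01) were called higher in eWAT, and both turned by median-ratio scaling (-0.22 and -0.30).

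Rpl3, a core protein of the large subunit near the site of peptide bond formation, had the largest cytosolic difference. Its FPKM was 153, 118 and 124 in CON eWAT, 13.4, 20.2 and 10.7 in CON liver and 16.2, 14.2 and 14.6 in CON muscle. Levels in eWAT thus lay far above both other tissues, which overlapped (eWAT minus liver 3.15 ± 0.24, adjusted p = 2.31e-06; eWAT minus muscle 3.09 ± 0.24, adjusted p = 5.07e-06). Rps4x, the X-linked form of a small subunit protein, was next against liver at 325, 272 and 286 FPKM in eWAT and 24.9, 79.8 and 41.6 in liver (2.74 ± 0.39), followed by Rpl4 (2.46). The lowest differences were those of Rpl36 (-0.30), Rpl27 (-0.28) and Rpl38 (-0.19), whose groups overlapped and which did not pass the test (adjusted p = 0.475, 0.519 and 0.574 by limma).

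Mrps6, a small subunit protein, was the mitochondrial counterpart. It stood at 14.1, 17.6 and 14.8 FPKM in CON eWAT, 1.37, 2.13 and 2.35 in liver and 1.92, 1.43 and 2.16 in muscle. In HSD mice the values were 16.2, 23.0 and 17.4 in eWAT, 2.57, 3.20 and 2.21 in liver and 1.52, 2.51 and 2.52 in muscle. All 6 eWAT libraries lay above all others, with differences of 2.72 ± 0.20 from liver (adjusted p = 1.55e-06) and 2.78 ± 0.20 from muscle (adjusted p = 2.81e-06) in CON mice. Mrpl44 (2.66) and Mrps18b (2.54) were also higher in eWAT than in liver, and Mrpl18 (-1.81) and Mrpl14 (-1.71) were lower. Mrpl14 stood at 12.0, 10.6 and 8.99 FPKM in CON eWAT, 25.7, 41.8 and 41.5 in liver and 20.5, 25.4 and 25.8 in muscle. Mrpl52 (-0.59) did not pass.

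Between eWAT and muscle, calls were mostly in the cytosolic ribosome. Of 76 cytosolic members, 26 were called higher in eWAT and 0 lower (36 and 0 at an unadjusted p under 0.05 by limma, and 23 and 0 called by voom), with a median of 0.85, and of 77 mitochondrial members 3 were higher and 2 lower, with a median of -0.04. Over all genes 54.9% were called, 46.9% of those tested being higher and 7.98% lower, and the median was 0.93. Relative to all genes, cytosolic members were thus at -0.08 and mitochondrial members at -0.98. By median-ratio scaling the medians were -0.16 and -1.02, with 1 cytosolic member higher and 1 lower, 1 mitochondrial member higher and 34 lower, where 20.1% of all genes were higher and 18% lower. For mitochondrial members it was 1 and 24 by quantile normalization (19.9 and 17% of all genes) and 2 and 5 with mitochondrially encoded genes left out (42.4 and 9.13%). Without muscle CON replicate 1, 13 cytosolic members were higher and 0 lower (46.1 and 7.53% of all genes). Mitochondrial members of the small subunit had a median of 0.16 (29 tested) and those of the large subunit -0.20 (48 tested).

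After Rpl3, the cytosolic members with the largest differences were Rps19, needed to mature the small subunit, at 47.1, 39.0 and 41.8 FPKM in CON eWAT and 8.94, 10.6 and 12.2 in CON muscle (1.97 ± 0.33, adjusted p = 0.000506), and Rpl41 at 349, 319 and 341 against 82.4, 92.8 and 105 (1.85 ± 0.31, adjusted p = 0.000463). At the other end, Rplp0 (-0.04), Rpl4 (0.04) and Rps2 (0.10) had overlapping groups. Mrpl20 (1.53) and Mrpl49 (1.10) were called higher in eWAT. Mrpl42 (-1.78) and Mrpl14 (-1.15) were called lower. Mrps28, at 26.8, 30.8 and 29.8 FPKM in eWAT and 53.9, 58.1 and 71.1 in muscle (-1.05), did not overlap between the tissues but missed the test (adjusted p = 0.0726).

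The same comparisons were made in the 9 HSD libraries. Liver minus muscle had 6 cytosolic members higher and 5 lower and 1 mitochondrial member higher and 21 lower, while 45.1% of all genes were called. Medians were 0.14 and -0.63, so mitochondrial members had lower values in liver in both diets. Against liver, eWAT had 23 cytosolic members higher and 15 mitochondrial members higher and 2 lower, with 68.4% of all genes called. Against muscle, eWAT had 10 cytosolic members higher, and 3 mitochondrial members higher and 4 lower, with 58.7% of all genes called. In eWAT minus muscle, 74 of 75 cytosolic members tested were positive in HSD mice and 75 of 76 in CON mice. Of all genes tested, 10745 of 13255 were positive in HSD mice and 10034 of 12637 in CON mice. The cytosolic medians, 0.69 and 0.85, lay below those of all genes, 1.12 and 0.93.

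**Figure D2:**
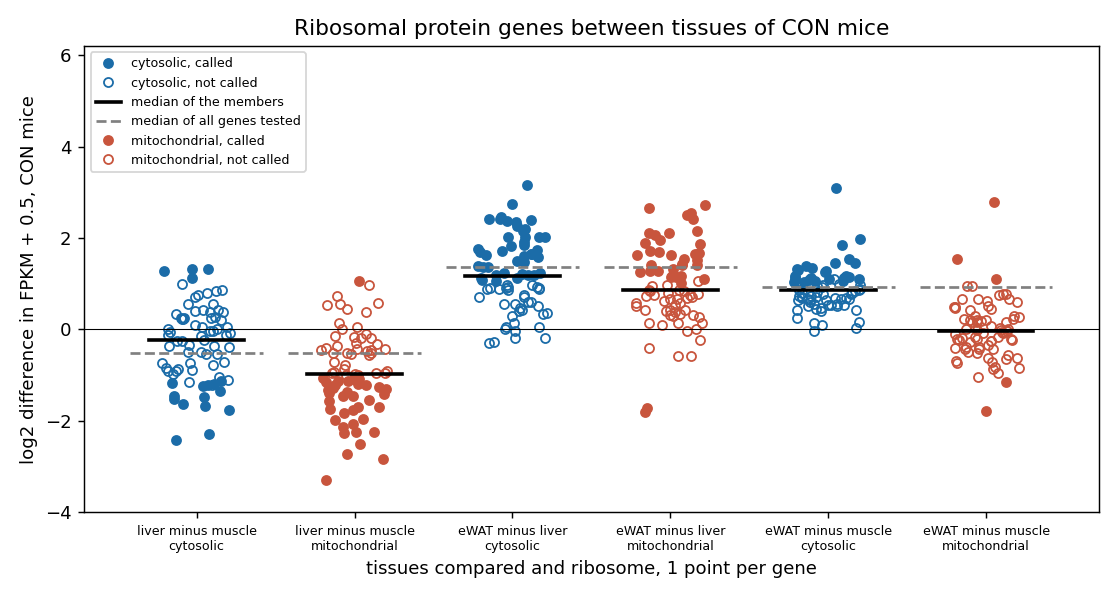
Log2 differences in FPKM + 0.5 between tissues of CON mice, with 1 point per cytosolic or mitochondrial member, filled where called, a black line at the median of the members and a dashed line at the median of all genes tested. Mitochondrial medians lie at -0.96, 0.87 and -0.04, each below the median of all genes in the same comparison.

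Paralogs were compared with their parent genes by the log2 ratio of paralog to parent (0.5 FPKM added to both), which does not depend on the library total except for values near 0. Means over the 6 libraries of a tissue were compared by an exact 2-sided permutation test, for which the smallest p is 0.00216, and p-values were adjusted over 21 comparisons. Diets were pooled, and libraries were permuted as if each came from a different mouse. By their labels, eWAT and muscle came from the same 6 mice, and liver shared most of its mice with them. The p-values therefore ignore the mouse, and no ratio was tested by mouse. Of these, 7 had an adjusted p under 0.05.

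In muscle, Rpl3l (GENCODE, mm10, chr17:24727820-24736143, + strand) was the more abundant of the pair with Rpl3 (chr15:80077791-80091868, - strand). Its FPKM in muscle was 277, 249 and 293 in CON mice and 252, 257 and 306 in HSD mice, while Rpl3 was 16.2, 14.2 and 14.6 in CON mice and 12.8, 16.2 and 15.1 in HSD mice. In eWAT, Rpl3l was 0.190, 0.0803 and 0.0732 in CON mice and 0.357, 43.2 and 0.140 in HSD mice. In liver, it was 0, 38.1 and 0 in CON mice and 0.175, 0 and 0.142 in HSD mice. Of the 12 libraries of liver and eWAT, 2 thus held Rpl3l above 1 FPKM, liver CON replicate 2 and eWAT HSD replicate 2. The log2 ratio was 4.15 ± 0.14 in muscle, -3.99 ± 2.46 in liver and -6.75 ± 2.26 in eWAT (SD, n = 6). Muscle differed from both tissues without overlap (p = 0.00216, the smallest possible, adjusted p = 0.00758, exact permutation test), and eWAT and liver overlapped (p = 0.0714, adjusted p = 0.15, exact permutation test). The latter p was 0.253 with a pseudocount of 0.1, 0.026 with 1, and 0.00433 without eWAT HSD replicate 2 (exact permutation tests), so it moved with the pseudocount and with this library.

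In liver CON replicate 2, Rpl3l rested on 727 fragments and skeletal muscle markers summed to 4610 FPKM. In eWAT HSD replicate 2, it rested on 872 fragments while the same markers summed to 49.1 FPKM (13.2 to 46.8 in the other eWAT libraries) and epididymal epithelium markers to 19311. The part of these cells in the values was not tested.

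Rps27l, a paralog of Rps27 known as a target of p53, had a different order. It stood at 37.9, 187 and 152 FPKM in CON liver and 235, 211 and 76.6 in HSD liver, against 35.2 to 53.2 in eWAT and 35.7 to 75.5 in muscle. Rps27 stood at 22.6 to 88.0 FPKM in liver, 67.4 to 95.8 in eWAT and 32.8 to 55.5 in muscle. The log2 ratio was 1.53 ± 0.47 in liver, 0.27 ± 0.16 in muscle and -0.76 ± 0.16 in eWAT (SD, n = 6), and no pair of tissues overlapped (adjusted p = 0.00758 for each, exact permutation test). Rps27l was thus above its parent in all 12 libraries of liver and muscle and below it in all 6 of eWAT. Both genes have a 9-base pyrimidine run near the start in the windows given above. Copies nearly identical to Rps27, found in 4 other genes and not for Rps27l, limit the parent's value. For its retrogene Rps27rt the ratio to Rps27 was -0.31 ± 0.31, -0.44 ± 0.17 and -0.37 ± 0.11 in liver, muscle and eWAT (SD, n = 6), and no tissue pair passed (lowest adjusted p = 0.536, exact permutation test).

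Rpl22l1 was expressed at 0.934 to 4.25 FPKM and its parent Rpl22 at 7.48 to 55.2. The ratio was higher in liver, -2.82 ± 0.45, than in muscle, -3.58 ± 0.28 (adjusted p = 0.0195), and in eWAT, -3.60 ± 0.17 (adjusted p = 0.00758, n = 6 each, exact permutation tests). Rpl7l1, a factor of large subunit assembly, was at 5.21 to 20.2 FPKM, and its ratio to Rpl7 passed in no pair of tissues (lowest adjusted p = 0.0625, exact permutation test). Rpl36al, at most 1.08 FPKM beside Rpl36a at 10.6 to 58.4, did not pass either (lowest adjusted p = 0.0758, exact permutation test).

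Rpl10l and Rpl39l, known from male germ cells, were listed at 0 in all liver libraries. In eWAT, Rpl10l was 0.0610, 0.645 and 0 FPKM in CON mice and 3.58, 1.19 and 0.373 in HSD mice. Rpl39l was 0.225, 0.715 and 0 in CON mice and 2.73, 1.37 and 0.184 in HSD mice. The highest values of both were in eWAT HSD replicates 1 and 2, where male germ cell markers summed to 644 and 316 FPKM and all 10 and 9 of 10 markers were above 1 FPKM. The part of these cells was not tested. Neither passed between diets (adjusted p = 0.334 and 0.435 by limma).

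Between diets, 18 ratios of paralog to parent were compared within tissues by exact permutation tests of 3 against 3, which cannot give a p below 0.1. The lowest adjusted p was 0.675 (exact permutation test). The groups of Rpl7l1 to Rpl7 in muscle did not overlap (-3.63 ± 0.12 in HSD and -3.18 ± 0.09 in CON mice, difference -0.45, p = 0.1, exact permutation test).

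**Figure D3:**
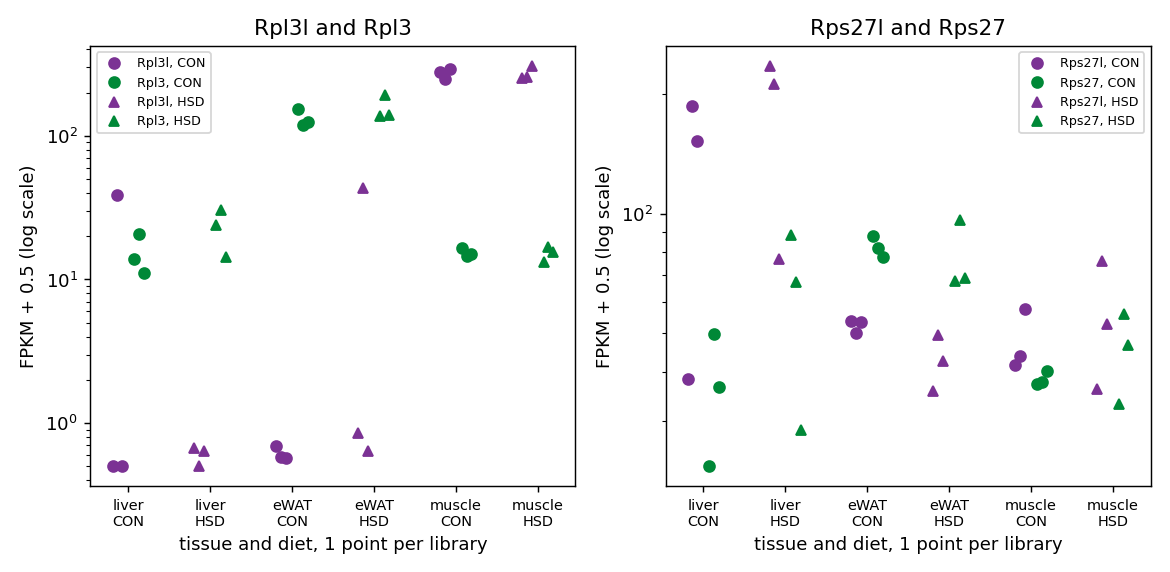
FPKM + 0.5 (log axis) of Rpl3l beside Rpl3 and of Rps27l beside Rps27 in each library, by tissue and diet, circles for CON and triangles for HSD. Rpl3l lies above Rpl3 in all 6 muscle libraries and, outside muscle, above 1 FPKM only in liver CON replicate 2 (38.1) and eWAT HSD replicate 2 (43.2).

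The effect of the diet was compared within each tissue. In liver, no member was called over all 6 libraries (76 cytosolic and 77 mitochondrial members tested), and 0% of the 10317 genes tested were called by limma. At an unadjusted p under 0.05 there were 0 cytosolic and 1 mitochondrial member, and 592 genes in all. Median log2 fold changes were 0.57 for cytosolic and 0.34 for mitochondrial members, with 74 and 67 of them positive. Over all genes the median was 0.13, with 6473 of 10317 positive. The lowest p-values were those of Mrps18b at 0.251, 1.44 and 0.785 FPKM in CON and 1.75, 1.71 and 2.02 in HSD livers (0.91 ± 0.35, adjusted p = 0.764 by limma), Mrpl44 (1.31) and Mrpl24 (0.54), and of Rpl30 (0.49), Rpl3 (0.57) and Rpl39 (0.81). Voom on fragments recovered from the FPKM values also called 0. With arrayWeights, which weights libraries by their spread, limma called 28 cytosolic and 10 mitochondrial members, all higher in HSD livers, where 6.9% of all genes were called higher and 2.07% lower. The 6 macrophage markers summed to 19.2 to 32.2 FPKM in CON and 9.17 to 17.4 in HSD livers, although Cd68, Mrc1, Cd14 and Lyz2 overlapped. The part of these cells in the values was not tested.

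Cytosolic members of liver followed the share of mitochondrially encoded genes in inverse order over the 6 libraries. The lowest cytosolic median, 22.9 FPKM, was in CON replicate 1 with a share of 60.8%, and the highest, 106 FPKM, in HSD replicate 2 with a share of 15.4%. FPKM is scaled to the library total, which includes the mitochondrially encoded genes. Once those genes were removed and the remaining FPKM scaled up, the cytosolic medians were 58.4, 106 and 77.8 FPKM in CON livers. In HSD livers they were 115, 125 and 57.9, a smaller range in the same overlapping groups. At shares of 60.8, 44.4, 37.8, 25.7, 16.3 and 15.4%, these medians were 58.4, 57.9, 77.8, 106, 115 and 125 FPKM. The order thus stayed inverse except in the first pair. The part of the share in these values was not tested. Mitochondrial members then had medians of 8.21, 11.2 and 9.59 FPKM in CON livers and 9.31, 9.63 and 7.51 in HSD livers. The median fold changes became 0.22 and 0.02. Mrpl18 ran the other way, at 95.5, 35.4 and 42.1 FPKM in CON and 35.2, 24.0 and 107 in HSD livers, highest in the libraries of the highest shares (it was singled out after its values were seen).

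**Figure D4:**
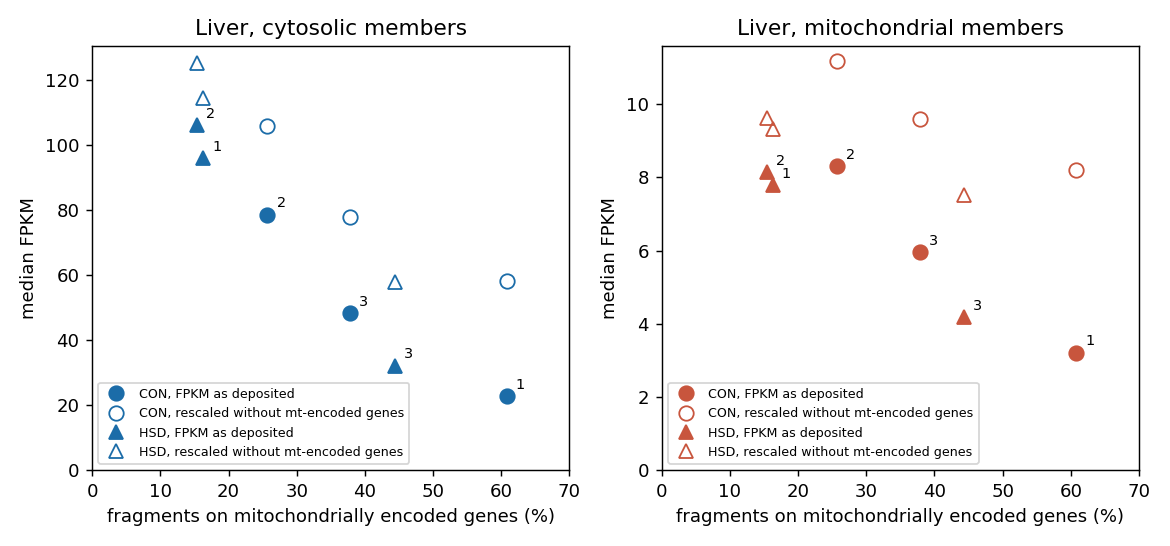
Median FPKM of cytosolic (left) and mitochondrial (right) members in the 6 liver libraries against the percentage of fragments on mitochondrially encoded genes, filled for FPKM as deposited and open for FPKM rescaled without those genes. As deposited, the cytosolic median is 106 FPKM at a share of 15.4% and 22.9 FPKM at 60.8%.

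Over the 4 livers of the study, CON replicates 1 and 3 and HSD replicates 1 and 2, 3 mitochondrial and 0 cytosolic members were called, while 0.351% of all genes were called (0.201% higher). Mrpl46 stood at 1.02 and 1.39 FPKM in CON and 6.04 and 8.17 in HSD livers (2.15 ± 0.29, adjusted p = 0.0283). Mrps34, which stabilizes the small subunit, stood at 0.635 and 1.59 against 7.35 and 6.86 (2.30 ± 0.33, adjusted p = 0.0364), and 77.8% of its exon bases overlap another gene on either strand. Mrpl44 stood at 0.797 and 1.40 against 5.31 and 9.61 (2.29 ± 0.35, adjusted p = 0.0436). The livers left out held 8.33 (CON) and 1.07 FPKM (HSD) for Mrpl46 and 4.0 and 1.53 for Mrps34, so with all 6 the groups of both genes overlapped. Cytosolic members had 59 with an unadjusted p under 0.05 in favour of HSD and 1 of CON, a median of 1.41 and a lowest adjusted p of 0.0626, that of Rps13. Of all 9970 genes, 2410 had such a p in favour of HSD and 754 of CON. These 2 CON livers had shares of mitochondrially encoded genes of 60.8 and 37.8% and these 2 HSD livers 16.3 and 15.4%. With those genes left out, no member of either ribosome was called by limma and the medians were 0.65 and 0.25.

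In eWAT, no member was called, and 0% of 13740 genes were called by limma. At an unadjusted p under 0.05, 1 mitochondrial member was higher and 26 lower, of 77 tested, and 1 cytosolic member was higher and 3 lower, of 77 tested, with 2298 such genes in all. The median log2 fold change of mitochondrial members was -0.18, with 62 of 77 negative, beside 0.08 over all genes and for cytosolic members. Of all genes, 5619 of 13740 were negative. In 32 mitochondrial members all HSD libraries lay below all CON libraries, which held for 1706 of the 13740 genes. Mrps34 was at 11.5, 12.9 and 11.8 FPKM in CON and 7.92, 8.15 and 7.52 in HSD eWAT (-0.59 ± 0.09, adjusted p = 0.114). Mrpl27 was at 25.01, 33.7 and 29.9 against 19.0, 16.0 and 20.5 (-0.66 ± 0.15, adjusted p = 0.155). Both had separate groups and missed the threshold, as did Mrpl49 (-0.39). Among the cytosolic members with the lowest p-values were Rpl35 (-0.74) and Rpl23a (-0.40), with adjusted p-values of 0.172 and 0.173 by limma.

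Some markers of other cells moved with the diet in eWAT. The 6 macrophage markers, all above 1 FPKM in every library, summed to 373 to 572 FPKM in CON and 156 to 352 in HSD eWAT. Adgre1, Csf1r and Cd14 of this list overlapped, and the highest Cd14 value was in an HSD library. The 10 skeletal muscle markers summed to 13.2 to 23.2 FPKM in CON and 35.4 to 49.1 in HSD eWAT. Of these, Actn3, Myot, Tnni2, Pygm and Myh1 overlapped. Lyz2 and Acta1 were the largest terms of the macrophage and skeletal muscle sums. The 10 hepatocyte markers did not separate in sum, but 10, 10 and 9 of them were at 1 FPKM or more in CON and 5, 2 and 2 in HSD eWAT. Alb stood at 53.9 to 167 FPKM in CON and 3.30 to 7.85 in HSD eWAT, and Apoa1 at 19.6 to 53.2 and 0.329 to 2.02. Cyp2e1 of the same list overlapped, at 1402, 942 and 990 FPKM in CON and 2131, 664 and 2567 in HSD eWAT. The part of these cells in the mitochondrial values was not tested. Without HSD replicates 1 and 2 together, which left HSD replicate 3 as the only HSD library, the mitochondrial median was -0.070. Without HSD replicate 3 it was -0.24, with 45 members below all CON libraries. The fit without HSD replicate 3 called no member by limma (25 had lower values in HSD mice at an unadjusted p under 0.05), and 0% of 13844 genes were called in it. Of these 13844 genes, 2303 lay below all CON libraries, and 1073 were lower at that p. In HSD replicate 2, Rpl10 stood at 460.0 FPKM and at 198 to 243 in the other eWAT libraries (it was singled out after its values were seen). By voom on the recovered fragments, 0 members were called as well.

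In muscle, no member was called, while 0.323% of 10834 genes were. Cytosolic members had a median log2 fold change of 0.21 with 71 of 74 positive, and mitochondrial members -0.02 with 34 of 77 positive. Over all genes the median was -0.06, with 4248 of 10834 positive. At an unadjusted p under 0.05, 2 cytosolic members were higher and 9 mitochondrial members lower, while 465 of all genes were higher and 1296 lower. No cytosolic member had separate groups, since HSD replicate 1 lay with the CON libraries (median 50.3 FPKM, against 80.2 and 73.4). Among the 77 mitochondrial members, 12 had all HSD libraries below all CON libraries, as had 1685 of the 10834 genes, a like share. Mrpl19 was at 3.52, 3.49 and 3.02 FPKM in CON and 2.15, 1.96 and 1.79 in HSD muscle (-0.64 ± 0.12, adjusted p = 0.0533). Mrps22 was at 5.24, 6.09 and 5.44 against 3.54, 4.28 and 3.76 (-0.48 ± 0.12, adjusted p = 0.104), and Mrpl49 at 14.1, 12.7 and 12.9 against 9.17, 10.8 and 10.1 (-0.39 ± 0.12, adjusted p = 0.144). These values of CON and HSD muscle did not overlap, but the differences were under 2-fold and over the threshold. The cytosolic members with the lowest p-values, Rps9 (0.37), Rpl10 (0.37) and Rps20 (0.41), overlapped. All 30 cytosolic members tested of the small subunit and 41 of 44 of the large subunit had a positive fold change. Voom called 0 members as well. The macrophage markers summed to 36.2 to 64.1 FPKM in CON and 28.1 to 32.1 in HSD muscle, although Adgre1, Cd68, Csf1r and Cd14 overlapped. The part of these cells in the values was not tested.

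**Figure D5:**
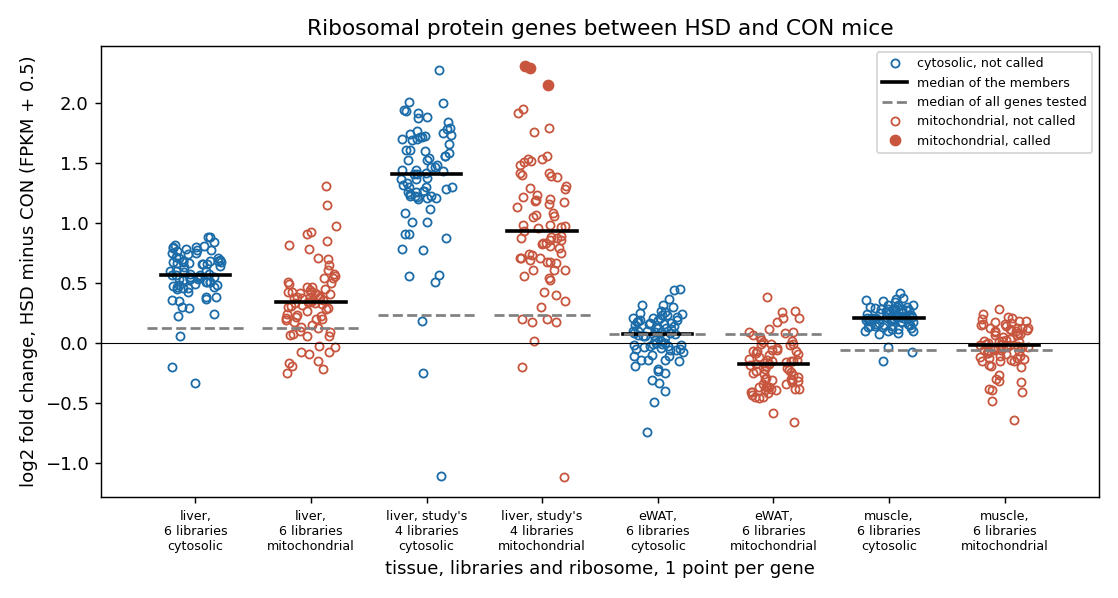
Log2 fold changes (HSD minus CON, FPKM + 0.5) of the cytosolic and mitochondrial members in each tissue, and in liver for the study's libraries as well, with 1 point per gene, filled where called, black lines at the median of the members and dashed lines at the median of all genes tested. Called members are those 3 of the study's livers (Mrpl46, Mrps34 and Mrpl44), and the cytosolic median is 0.57 over all livers and 1.41 over the study's livers.

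Whether tissues differed in their response to the diet was tested as an interaction in 1 fit of all 18 libraries over 13067 genes. No member passed an adjusted p under 0.05 by limma in any pair of tissues, where 0.0612% (liver minus muscle), 0.788% (eWAT minus liver) and 0% (eWAT minus muscle) of genes did. At an unadjusted p under 0.05 there were 5 mitochondrial and 0 cytosolic members for liver minus muscle, 6 and 1 for eWAT minus liver, and 0 of either for eWAT minus muscle, and voom on the recovered fragments called 0. Without liver CON replicate 2, 3 members passed, and the share of all genes was not counted in that fit. The lowest adjusted p was that of Mrps18b for eWAT minus liver (difference -1.29 ± 0.35, adjusted p = 0.118). Mrps22 (-1.37) and Mrps34 (-1.74) followed. Over the study's 15 libraries, 90 members passed in at least 1 pair. Between liver and muscle, 26 cytosolic and 32 mitochondrial members had a higher diet effect in liver, where 13.7% of all genes passed. Between eWAT and liver, 44 of each had a lower effect in eWAT, where 23.8% passed, and between eWAT and muscle none passed, where 1.35% of all genes did. With mitochondrially encoded genes left out, 24 members passed, all of them between eWAT and liver (6 cytosolic and 18 mitochondrial, or 7.89 and 23.4% of those tested, beside 21.5% of all genes), and 6 mitochondrial members also passed between liver and muscle (7.79%, beside 4.86% of all genes).

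Genes that build or serve ribosomes were counted from lists. No gene was called between diets in any tissue among 38 translation factors of the cytosol, 47 ribosome biogenesis factors, 27 assembly and translation factors of the mitochondrial ribosome, 8 ribosomal parts outside the naming rule and 13 mitochondrially encoded proteins, by limma. At an unadjusted p under 0.05, 10 of the 27 mitochondrial assembly and translation factors were lower and 0 higher in HSD muscle, and 7 of the 38 cytosolic translation factors were higher and 1 lower, beside 465 higher and 1296 lower of all 10834 genes. Over all 6 libraries of eWAT or of liver no list had more than 6 such genes. Over the study's livers, 24 of 37 cytosolic translation factors and 11 of 27 mitochondrial assembly and translation factors were higher and 0 lower, and 11 of 47 biogenesis factors were higher and 2 lower, where 2410 of 9970 genes were higher and 754 lower. In muscle, Eif4ebp1, which binds and blocks the cap-binding factor, had an adjusted p of 0.0368 (limma) with a log2 fold change of 0.80 ± 0.14, under 2-fold.

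Between tissues of CON mice, 26 of 38 cytosolic translation factors were called lower in liver than in muscle and 1 higher, with a median of -1.503. The elongation factors Eef1a2, the form of muscle and nerve (-7.70 ± 1.58), and Eef1a1, the form of most tissues (1.07 ± 0.34), lay at opposite ends. In eWAT minus muscle they were at -9.91 and 3.39. Biogenesis factors were lower in 15 of 47 in liver, with Rrp12 lowest (-3.35 ± 0.18), and 25 of 47 were higher in eWAT than in liver, neither above the share of all genes (35.1 and 62.1%). Of the 27 mitochondrial assembly and translation factors, 14 were lower in liver than in muscle, led by Tufm (-2.77 ± 0.52) and Gfm1 (-2.70 ± 0.38), the mitochondrial elongation factors, and 4 were lower in eWAT than in muscle. Transcripts of mitochondrially encoded proteins, which these ribosomes translate, were compared as well. Of 12 tested, 3 were called higher in CON liver than in CON muscle and 0 lower (3 and 0 at adjusted p under 0.05 alone, by limma). Over all genes, 15% were called higher and 35.1% lower. Mitochondrially encoded genes held 25.7 to 60.8% of fragments in CON livers and 12.3 to 16.5% in CON muscle. In HSD mice 0 of 13 such transcripts were called between liver and muscle by limma (1 higher and 0 lower at an unadjusted p under 0.05), with a median of 0.78. In CON mice all 12 transcripts tested were called lower in eWAT than in liver, where 7.26% of all genes were called lower.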

How the data were processed

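RNA was isolated from liver, eWAT and quadriceps muscle, depleted of ribosomal RNA and sequenced as stranded libraries. By the paper, reads went through adapter removal (cutadapt) and alignment by HISAT2 to the mouse genome (mm10), and cuffdiff gave FPKM per gene. The deposit holds 1 table of FPKM. The submitters' processing notes name HISAT2, HTSeq 0.9.1, mm10 and mm9. Which build each step used is not given in the sources used here. Nor is it given whether cuffdiff or HTSeq counts lie behind the deposited values. Whole fragments were recovered with GENCODE M21 exon lengths on mm10 (18373 of 18822 genes above 0 whole at the annotated length within 0.1 fragments, 449 at another length), so counting error is known. FPKM were fitted as log2(FPKM + 0.5) with limma 3.58.1 (R 4.3.3, trend), for genes with a mean of at least 0.5 FPKM, without a replicate block. Ratios were tested by exact permutation (scipy 1.17.1, Python 3.11.15).

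The members, lists, markers and tests were chosen with earlier results of these data known. Named genes were all paralog pairs, members called between diets or the 3 with the lowest p, the 3 highest and 3 lowest tissue differences and levels, and the 3 lowest interaction p-values. Genes named outside this rule are marked as such. A gene that the rule would name is not reported here. The diet fits were tested on simulated fragments with 1 spread for all genes of a tissue and no shift shared by the genes of a library. The data held such shifts, as in the mitochondrial share of the livers, so the rates below describe the simulation alone. A 2-fold change was called in 8.42% of changed genes in liver, 26.8% in eWAT and 27.8% in muscle. At adjusted p under 0.05 alone it was 8.42, 97.9 and 95.9%. A 4-fold change was called in 89.8, 99 and 99%. False calls at adjusted p under 0.05 were 10.3, 5.42 and 5.47% of the calls at that threshold. A missing diet call therefore does not show that a gene was unchanged. In muscle, same-numbered libraries of the diet groups deviated together (r = 0.383, 0.177 and 0.184, each over 0.1). In liver r was -0.473, 0.395 and -0.213 and in eWAT -0.197, 0.0608 and 0.414, so not every pair was over 0.1. Alternatives covered the pseudocount, filter, scaling, weights, voom, TPM, blocks, the study's libraries and leaving out each library.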

Additional observations from a re-analysis of the deposited data

Results flagged for a closer look

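Of 30 groups of 6 libraries, 2 held a library far from the others by Dixon's test, which chance would do in about 1 of 20 groups. In eWAT, the log2 ratio of Rpl3l to Rpl3 was -2.14 in HSD replicate 2 and -7.79 to -7.32 in the other 5 libraries, a gap of 0.916 of the whole range. In liver, it was 0.90 in CON replicate 2 and -5.93 to -4.48 in the other 5, a gap of 0.788 of the range. The eWAT library also held 19311 FPKM of epididymal epithelium markers and the liver library 4610 FPKM of skeletal muscle markers, and the part of these in the ratios was not tested.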

How the results depend on the processing

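Calls in the tissue comparisons moved with the scaling, and the diet calls with the choice of liver libraries. Values are given in the order liver minus muscle, eWAT minus liver, eWAT minus muscle. In HSD mice, cytosolic calls were 11, 23 and 10, mitochondrial calls 22 and 17 in the first pairs, and medians 0.36 (eWAT minus liver, mitochondrial) and 0.69 (eWAT minus muscle, cytosolic). With TPM, cytosolic calls were 33 and 67, mitochondrial calls 56, 69 and 10, cytosolic medians -0.88, 2.10 and 1.14, and mitochondrial medians -1.65, 1.81 and 0.24. Calls over all genes were not counted with TPM or voom, without the filter, or for the arrayWeights interaction. Nor were they with median-ratio scaling and liver CON replicate 2 left out. These member counts thus have no share of all genes beside them. With median-ratio scaling, cytosolic calls were 22 and 2 in the eWAT comparisons, mitochondrial calls 24 (liver minus muscle) and 35 (eWAT minus muscle), cytosolic medians -0.46 and -0.16, and mitochondrial medians -0.40, -0.63 and -1.02, and Rpl7l1 (-0.22) and Rpl22l1 (-0.30) reversed between eWAT and liver. With that scaling and liver CON replicate 2 left out, chosen after seeing the data, eWAT minus liver had 19 cytosolic and 22 mitochondrial calls, medians of -0.22 and -0.49, and reversed values of -0.19 for Rpl7l1 and -0.21 for Rpl22l1. With quantile normalization, cytosolic calls were 25 and 11 in the eWAT comparisons, mitochondrial calls 21, 20 and 25, mitochondrial medians -0.49, -0.28 and -0.80, the cytosolic median of eWAT minus muscle 0.55, the mitochondrial diet median in eWAT -0.26, and Rpl22l1 reversed between eWAT and liver (-0.45). With mitochondrially encoded genes left out, cytosolic calls were 22 and 13 in the eWAT comparisons, mitochondrial calls 24 and 20 in the first pairs, cytosolic medians 0.41 and 0.69, and mitochondrial medians -0.44, 0.23 and -0.20. Without the filter, eWAT minus muscle had 16 cytosolic calls, and with voom 8 mitochondrial calls. With arrayWeights, whose weights did not reach limma's convergence tolerance in some fits, 28 cytosolic and 10 mitochondrial members were called between diets in liver and 6 in the interaction. In the study's libraries, 3 mitochondrial members were called in liver with a median of 0.93, and 90 members in the interaction, or 24 with mitochondrially encoded genes left out. Without eWAT HSD replicates 1 and 2, which left replicate 3 as the only HSD library of eWAT, the mitochondrial diet median was -0.070. The last 2 alternatives were chosen after seeing the data. The cause of these changes was not tested.

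Leaving out each library in turn gave 15 to 32 cytosolic and 22 to 46 mitochondrial calls for liver minus muscle, 28 to 55 and 24 to 47 for eWAT minus liver, 13 to 20 and 3 to 5 for eWAT minus muscle, and 0 to 3 for the interaction. Of all genes, 14.4 to 15.2% were then higher and 33.2 to 37.9% lower for liver minus muscle. It was 60.9 to 64.2% and 6.98 to 7.55% for eWAT minus liver, and 45.6 to 47% and 7.49 to 7.89% for eWAT minus muscle. Calls over all genes were not counted for the interaction here, nor with the mouse as a block. Diet medians in liver ranged from 0.13 to 1.01 (cytosolic) and 0.03 to 0.65 (mitochondrial), and no diet call appeared. With the replicate number as a block, 0 members were called between diets in each tissue and the medians were the same (0.57 and 0.34 in liver, 0.08 and -0.18 in eWAT, 0.21 and -0.02 in muscle). With the mouse as a random block (correlation 0.0709 over CON libraries), calls were 19, 42 and 26 cytosolic and 37, 34 and 5 mitochondrial, and 0 in the interaction. Same-numbered libraries of the diet groups came from different mice, and the labels give no pairing between them. These libraries deviated together in muscle and not in every pair of liver or eWAT. The block by replicate number changed no diet call.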
